A study of Mus musculus with 15 samples.

Results

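The genes described here are 44 genes of fatty acid oxidation and the peroxisome, with their regulators, taken by gene symbol from the 56748 genes of the deposited count table. They comprised 3 regulators, 4 genes of fatty acid uptake and binding, 4 acyl-CoA synthetases, 4 genes of the carnitine shuttle, 8 enzymes of mitochondrial β-oxidation, 5 auxiliary enzymes for unsaturated fatty acids, 3 genes of electron transfer, 9 genes of peroxisomal oxidation and 4 acyl-CoA thioesterases. RNA of whole kidney and whole lung from male wild-type C57Bl/6 mice was sequenced, with 3 libraries in each of 5 groups. WTK was the kidney of mice aged 10 to 12 weeks that had received vehicle, and its labels name no antibody. IgGK and LepK were kidneys of mice of the same age that had received 1 intraperitoneal dose of folic acid at 200 mg/kg, which injures the tubules and is followed by fibrosis, and then control IgG or LepAb, an antibody that neutralizes leptin, at 10 mg/kg every other day for 21 days. Kidneys were taken on day 28. IgGL and LepL were lungs of mice aged 12 weeks that had received bleomycin into the trachea at 1.5 units/kg and then IgG or LepAb at 10 mg/kg, taken on day 14, and no lung without bleomycin was analysed here.

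Long-chain fatty acids enter the cell and are activated to acyl-CoA esters, and the carnitine shuttle carries them into mitochondria, where β-oxidation shortens the chain stepwise and hands electrons to the respiratory chain. Peroxisomes shorten very long and branched chains by a separate set of enzymes, and thioesterases release the free acid again. PPARα is the nuclear receptor that induces many of these genes, and PGC-1α is its coactivator. The proximal tubule of the kidney lives largely on fatty acid oxidation, and in the lung alveolar type 2 cells use fatty acids to build surfactant.

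Many genes of this pathway are known to carry PPAR response elements, which are direct repeats of AGGTCA with 1 base between them. Of the 44 members, 39 had a promoter in the RefSeq table used here (build GRCm38.p6, 250 bases before to 50 bases after the start), some with more than 1, and a gene was counted when any of its promoters held the motif. The motif AGGTCANAGGTCA, searched on both strands with at most 2 mismatches, was found for 7 of these 39 genes (17.9%) and for 1190 of the 27025 genes of the table (4.40%). With at most 1 mismatch it was found for 2 members (5.13%) against 174 of all (0.644%), and no member held it without a mismatch, against 13 of all (0.0481%). The 7 members were Acot4, Acot12, Cd36, Etfa, Fabp1, Acox2 and Slc25a20, and in the last 2 of these the match lay after the start, for Acox2 in 1 of its 2 promoters. The sequences are the 250 bases before the start, 5′ to 3′ on the strand of the gene, of 3 members that fell after folic acid and were higher again under LepAb (Acot12, chr13:91741271-91741520, plus strand, Acot4, chr12:84038129-84038378, plus strand, Etfa, chr9:55512244-55512493, minus strand) and of Fabp1, which moved the other way after folic acid (chr6:71199629-71199878, plus strand). The capitals mark the match, which in all 4 lay on the opposite strand, 110 to 98 bases before the start of Acot12, 13 to 1 before that of Acot4, 77 to 65 before that of Etfa and 67 to 55 before that of Fabp1. A match of letters is a description and not a measured binding site.
Acot12: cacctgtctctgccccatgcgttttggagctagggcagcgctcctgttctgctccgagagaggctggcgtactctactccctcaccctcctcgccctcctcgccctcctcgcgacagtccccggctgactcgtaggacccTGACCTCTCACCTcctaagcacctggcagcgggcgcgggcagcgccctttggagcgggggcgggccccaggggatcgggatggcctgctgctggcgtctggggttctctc
Acot4: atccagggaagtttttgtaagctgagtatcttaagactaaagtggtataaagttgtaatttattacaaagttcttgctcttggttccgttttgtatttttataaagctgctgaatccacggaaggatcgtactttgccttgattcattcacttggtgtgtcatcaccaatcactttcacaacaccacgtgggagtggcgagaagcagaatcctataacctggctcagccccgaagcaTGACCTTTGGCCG
Etfa: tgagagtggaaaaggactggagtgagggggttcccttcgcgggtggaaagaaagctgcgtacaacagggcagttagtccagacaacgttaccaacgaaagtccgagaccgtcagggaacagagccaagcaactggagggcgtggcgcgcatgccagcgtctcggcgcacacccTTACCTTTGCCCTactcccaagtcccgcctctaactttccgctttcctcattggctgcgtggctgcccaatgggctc
Fabp1: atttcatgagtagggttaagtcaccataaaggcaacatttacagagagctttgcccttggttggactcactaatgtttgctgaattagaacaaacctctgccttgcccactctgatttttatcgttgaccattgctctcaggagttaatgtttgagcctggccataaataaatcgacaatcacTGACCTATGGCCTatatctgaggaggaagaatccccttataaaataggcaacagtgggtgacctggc

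Total counts were 25913969 to 38924788 per library, and levels are given as CPM, the count scaled by the library total and edgeR's TMM factor, for kidney and lung apart. The factors differed between the kidney groups, at 0.844 to 0.858 in WTK, 1.14 to 1.18 in IgGK and 0.970 to 1.05 in LepK. A gene was called when its log2 fold change exceeded 0.5 in either direction with an adjusted p under 0.05 in edgeR's quasi-likelihood test over all genes tested. The labels number the libraries of each group but do not tie them to mice, so the p-values measure the spread between these libraries. Reads were counted without strand, and reads of a member cannot be told from those of a gene that overlaps it. All 15 proximal tubule markers were detected in every kidney group and all 9 alveolar type 2 markers in both lung groups. LepK replicate 2 stood apart in liver transcripts: Alb, the plasma protein made by hepatocytes, was at 697 CPM there, against 6.78 and 26.7 in the other LepK libraries and 74.0 in IgGK replicate 2, and among the members Fabp1 was also at its highest there.

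Most of the gene set was lower in the kidney after folic acid. In IgGK against WTK, 31 of the 44 members fell and 3 rose (Pdk4, Acot1 and Fabp1), while 15.6% of the 19593 genes tested in kidney fell and 21.7% rose. The members' median log2 fold change was -0.73 and that of all genes tested was 0.04. The 3 IgGK libraries lay below the 3 WTK libraries without overlap for 37 members and above them for 3, against 30.1% and 32.5% of all genes. Scaled by library size alone, without TMM factors, 16 members fell and 6 rose, and the median was -0.28, while the median of all genes moved from 0.04 to 0.48. The 31 members that fell stood at 22.5% to 69.9% of the WTK mean in IgGK (median 51.6%).

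Under LepAb, part of the gene set was higher than under IgG, and part was still below the vehicle level. In LepK against IgGK, 15 members rose and none fell, in edgeR and in DESeq2, while 4.38% of all genes rose and 5.99% fell. The median log2 fold change was 0.37, against -0.01 for all genes, and 41 of 44 members were positive. The LepK libraries lay above all IgGK libraries for 32 members and below them for none, against 17.8% and 19.5% of all genes. Of the 15 members that rose, 14 were among the 31 that had fallen, and Acaa1b was the exception. Measured against WTK, 16 members were still lower in LepK and 4 were higher (Acot1, Acot3, Fabp1 and Pdk4), while 7.30% of all genes were lower and 15.2% higher. The LepK libraries lay below all WTK libraries for 28 members and above them for 5, against 24.6% and 25.6% of all genes. With library size alone as scaling, 8 were lower and 5 higher. The 31 members that had fallen stood at 33.9% to 89.7% of the WTK mean in LepK (median 68.5%). The comparisons share the IgGK or the WTK libraries, so a high value in one of those libraries enters each of them. LepK replicate 1 carried much of the count: without it 6 members rose instead of 15 (Acaa1b, Acox3, Acsm1, Fabp3, Phyh and Slc27a2), and the median was 0.29. Without both libraries rich in Alb, IgGK replicate 2 and LepK replicate 2, 16 members rose.

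**Figure D1:**
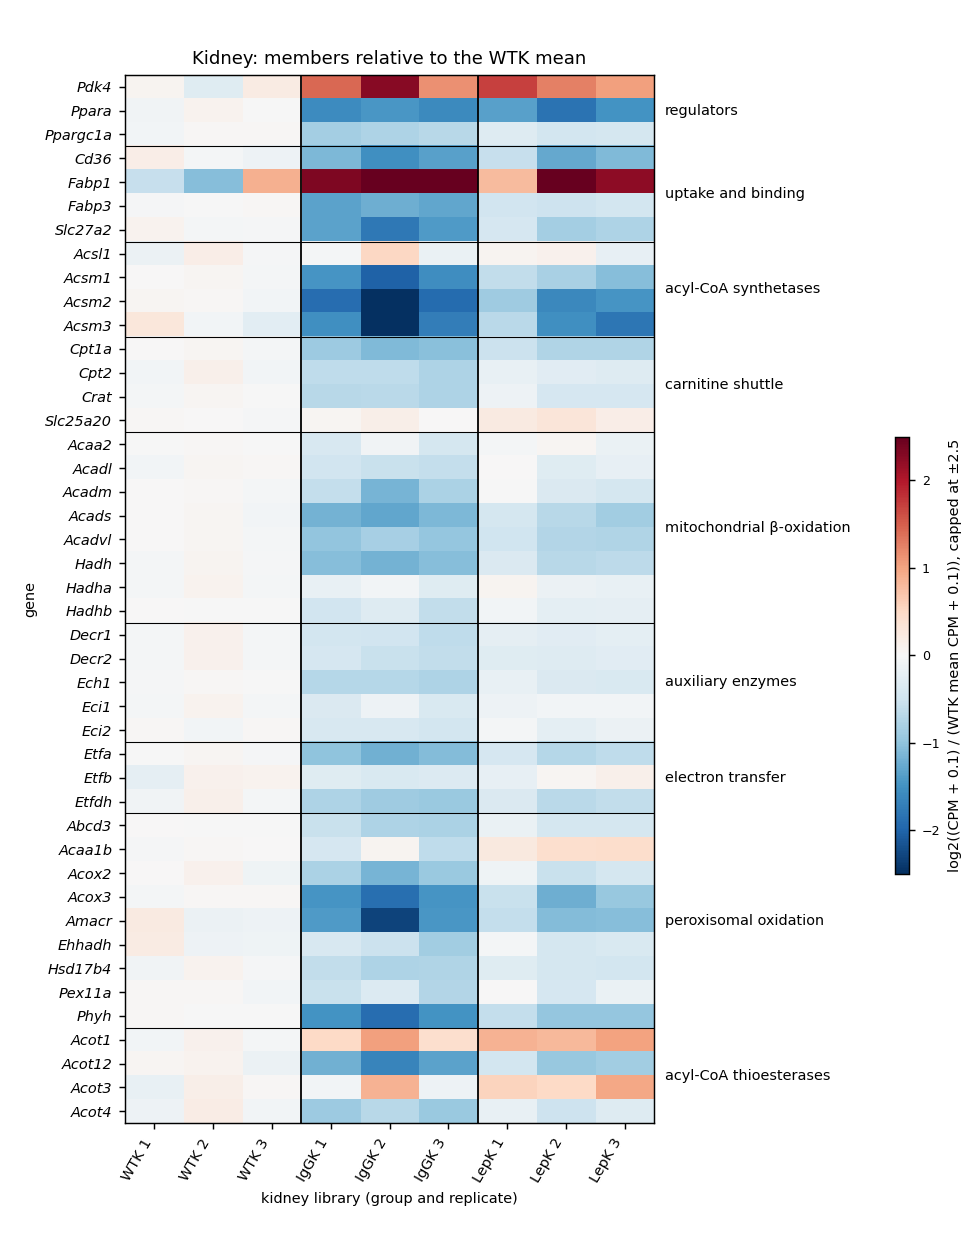
Level of the 44 members in the 9 kidney libraries, as log2 of the ratio to the WTK mean after adding 0.1 CPM, with columns by group and replicate and rows by role. IgGK columns are blue for most members, LepK columns are paler, and the rows of Pdk4, Fabp1 and Acot1 are red in IgGK.

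Among the regulators, Ppara and Ppargc1a fell after folic acid and Pdk4 rose. Ppara, which encodes PPARα (ENSMUSG00000022383, chr15:85619184-85687020), stood at 51.4, 58.4 and 54.2 CPM in WTK, 18.3, 19.9 and 18.2 in IgGK and 21.2, 15.2 and 19.2 in LepK. The WTK libraries were all above the injured ones, and the IgGK and LepK libraries overlapped. The log2 fold change was -1.54 ± 0.11 (SE, edgeR adjusted p = 2.45e-07) in IgGK against WTK, -0.02 ± 0.11 (SE, edgeR adjusted p = 0.924) in LepK against IgGK and -1.56 ± 0.11 (SE, edgeR adjusted p = 1.97e-06) in LepK against WTK. Ppargc1a, the gene of PGC-1α (ENSMUSG00000029167, chr5:51611592-51725068), was at 66.7, 71.3 and 70.6 CPM in WTK, 38.8, 40.8 and 42.8 in IgGK and 55.2, 50.5 and 51.0 in LepK, 3 groups without overlap. In IgGK it fell by 0.77 on the log2 scale (edgeR adjusted p = 1.12e-06), and LepK was 0.36 ± 0.07 (SE, edgeR adjusted p = 0.00304) above IgGK, short of the fold threshold. Pdk4, a kinase that shuts pyruvate dehydrogenase and thereby spares glucose (ENSMUSG00000019577, chr6:5483351-5496309), was measured at 18.2, 14.2 and 20.1 CPM in WTK, 47.8, 84.9 and 38.9 in IgGK and 57.7, 41.8 and 35.9 in LepK. Every injured library exceeded every WTK library, with a log2 fold change of 1.71 ± 0.26 (SE, edgeR adjusted p = 0.000125) in IgGK and 1.37 ± 0.26 (SE, edgeR adjusted p = 0.00139) in LepK against WTK. Between LepK and IgGK the libraries of Pdk4 overlapped, at -0.34 ± 0.25 (SE, edgeR adjusted p = 0.38).

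In the uptake and binding group, Slc27a2, Fabp3 and Cd36 fell after folic acid, and Slc27a2 and Fabp3 rose under LepAb. Slc27a2 encodes FATP2, a fatty acid transporter with very-long-chain acyl-CoA synthetase activity (ENSMUSG00000027359, chr2:126394327-126430163), and stood at 5309, 4845 and 4926 CPM in WTK, 1998, 1455 and 1884 in IgGK and 3761, 2788 and 2959 in LepK. The 3 groups did not overlap, with LepK between the others. Its log2 fold changes were -1.50 ± 0.13 (SE, edgeR adjusted p = 1.11e-06) in IgGK against WTK and 0.83 ± 0.13 (SE, edgeR adjusted p = 0.00107) in LepK against IgGK. Fabp3, the heart-type cytosolic fatty acid binding protein (ENSMUSG00000028773, chr4:130202388-130209256), was at 62.4, 62.9 and 65.2 CPM in WTK, 24.9, 27.3 and 25.6 in IgGK and 45.7, 44.2 and 46.5 in LepK, also without overlap and with little spread inside each group. It changed by -1.29 ± 0.06 (SE, edgeR adjusted p = 2.96e-08) after folic acid and by 0.81 ± 0.06 (SE, edgeR adjusted p = 5.77e-05) under LepAb, the smallest adjusted p of any member in LepK against IgGK. Zcchc17 overlaps Fabp3, with a count of up to 85.4% of that of Fabp3. Cd36, the fatty acid translocase of the plasma membrane, fell by 1.32 on the log2 scale in IgGK and was 0.36 ± 0.16 (SE, edgeR adjusted p = 0.132) in LepK against IgGK, with overlapping libraries.

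Fabp1, the liver-type fatty acid binding protein (ENSMUSG00000054422, chr6:71176811-71182007), was near the detection limit in WTK and varied widely between libraries of a group. It was at 0.0415, 0 and 0.289 CPM in WTK, 0.956, 4.83 and 2.17 in IgGK and 0.263, 27.3 and 0.886 in LepK. The log2 fold change in IgGK against WTK was 4.48 ± 1.73 (SE, edgeR adjusted p = 0.0446), and leaving out 1 library at a time it was called in 4 of 9 fits, with log2 fold changes of 3.72 to 6.77. In LepK against WTK it was 6.31 ± 1.68 (SE, edgeR adjusted p = 0.01), with overlapping libraries and values of 2.27 to 8.60 when 1 library was left out. Within IgGK and within LepK, the library highest in Fabp1 was also highest in Alb and Apoa1. Alb was at 74.0 CPM in IgGK replicate 2 and 697 in LepK replicate 2. Apoa1, an apolipoprotein of liver and intestine, was at 7.20 and 60.5 CPM there. Ttr, another hepatocyte marker, was lowest in replicate 2 within IgGK, at 120 CPM against 133 and 140. Within LepK it was highest in replicate 2, at 220 CPM against 161 and 112. In LepK replicate 1, where Fabp1 was at 0.263 CPM, Alb was at 6.78 CPM and Apoa1 at 0.494. Between WTK and IgGK the levels did not run together in every library, since IgGK replicate 1 had the lowest Alb of all kidney libraries, 2.31 CPM, with Fabp1 at 0.956, whereas the WTK libraries had Alb at 9.51 CPM or more with Fabp1 at 0 to 0.289. Of 10 hepatocyte markers, 2 rose in IgGK against WTK, 0 in LepK against IgGK and 8 in LepK against WTK, and 0 fell. Of all genes tested, 21.7%, 4.38% and 15.2% rose in these comparisons. The log2 fold change was positive for 8, 9 and 9 of the 10 markers. The part of liver transcripts in the Fabp1 result was not tested.

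**Figure D2:**
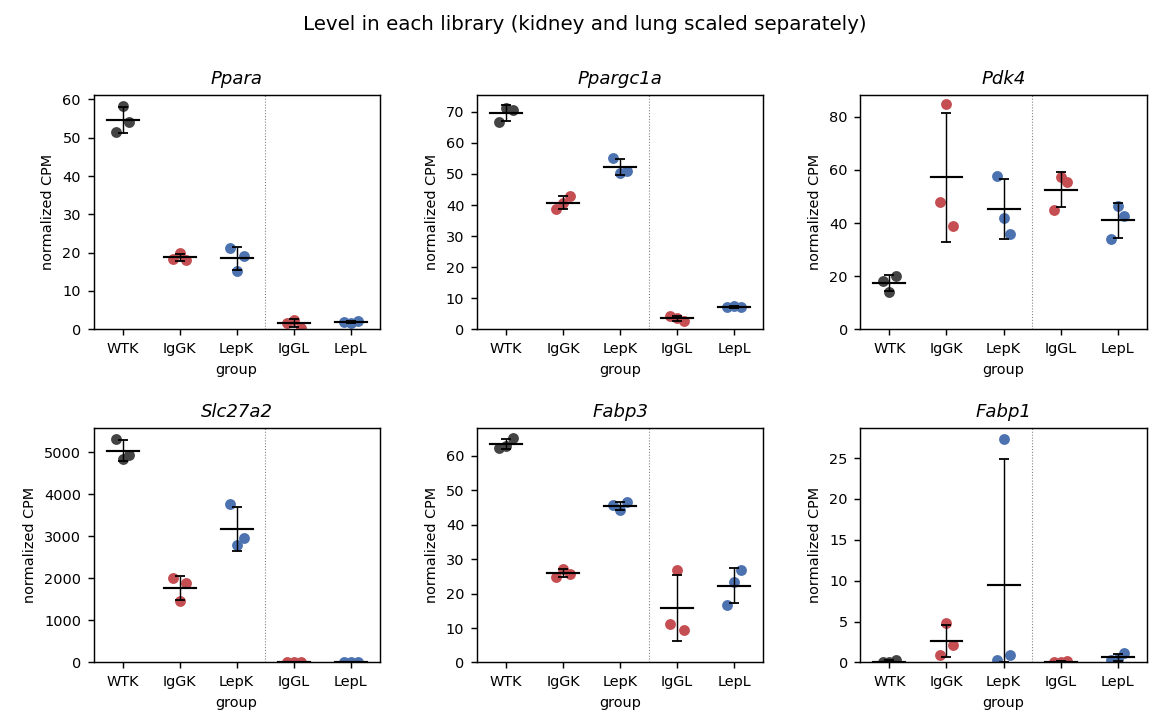
Normalized CPM of 6 members in each library of the 5 groups (points), with the mean as a line and the SD of 3 libraries as a bar. Ppara is as low in LepK as in IgGK, Slc27a2 and Fabp3 in LepK lie between IgGK and WTK, and the Fabp1 mean in LepK rests on 1 library at 27.3 CPM.

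The acyl-CoA synthetases held the 2 lowest log2 fold changes after folic acid, those of Acsm2 and Acsm3. Acsm1, Acsm2 and Acsm3, mitochondrial synthetases for medium-chain acids that are abundant in the proximal tubule, all fell after folic acid, whereas Acsl1, the main long-chain synthetase, was not called. Acsm2 (ENSMUSG00000030945, chr7:119153563-119199913) stood at 6998, 6941 and 6493 CPM in WTK, 1809.7, 991 and 1796 in IgGK and 3686, 2219.9 and 2438 in LepK. The groups did not overlap, and IgGK retained 22.5% ± 6.88 (SD, n = 3) of the WTK mean and LepK 40.8% ± 11.6 (SD, n = 3). Its log2 fold changes were -2.15 ± 0.22 (SE, edgeR adjusted p = 4.79e-06) after folic acid, the lowest of all members, and 0.86 ± 0.22 (SE, edgeR adjusted p = 0.0147) under LepAb. Acsm1 (ENSMUSG00000033533, chr7:119206249-119261738) was at 216, 222 and 209.7 CPM in WTK, 77.2, 53.2 and 73.4 in IgGK and 140.3, 124 and 103 in LepK, with changes of -1.67 ± 0.13 (SE, edgeR adjusted p = 6.36e-07) and 0.85 ± 0.13 (SE, edgeR adjusted p = 0.00112). The reads of Acsm1 are less certain, since the overlapping gene models Gm39079 and Gm45792 held counts of up to 154% of its own, and reads may also be shared within the Acsm family. Acsm3 fell by 1.93 on the log2 scale, and LepK overlapped IgGK (0.68 ± 0.32 (SE, edgeR adjusted p = 0.161)). Acsl1 (ENSMUSG00000018796, chr8:46924074-46989088) was at 144, 177 and 155 CPM in WTK, 154, 227 and 142 in IgGK and 167, 171 and 138 in LepK, a single overlapping range in which IgGK against WTK gave 0.13 ± 0.15 (SE, edgeR adjusted p = 0.491).

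Of the carnitine shuttle, Cpt1a, Cpt2 and Crat fell after folic acid, and none of the 4 genes was called under LepAb. In LepK all 4 lay above IgGK without overlap and had an unadjusted edgeR p under 0.05. Of all genes tested, 17.8% lay above IgGK in this way, and 6441 of 19593 had such a p. Cpt1a, the outer-membrane carnitine palmitoyltransferase that sets the rate of entry (ENSMUSG00000024900, chr19:3372334-3435733), was at 582, 598 and 559 CPM in WTK, 307, 271 and 281 in IgGK and 398, 344 and 343 in LepK. Its log2 fold change was -1.02 ± 0.08 (SE, edgeR adjusted p = 4.69e-07) in IgGK and 0.34 ± 0.08 (SE, edgeR adjusted p = 0.00985) in LepK against IgGK, and at 62.4% ± 5.45 (SD, n = 3) of the WTK mean it was still called lower in LepK against WTK. Cpt2, the inner-membrane transferase, and Crat, carnitine acetyltransferase, fell by 0.68 and 0.71 on the log2 scale and were 0.41 ± 0.08 and 0.39 ± 0.08 (SE) in LepK against IgGK. Slc25a20, the carnitine-acylcarnitine translocase (ENSMUSG00000032602, chr9:108539287-108561840), departed from the other 3 with 60.6, 59.2 and 57.7 CPM in WTK, 61.4, 65.6 and 59.3 in IgGK and 68.9, 72.8 and 66.5 in LepK. Injury left it at 0.07 ± 0.06 (SE, edgeR adjusted p = 0.388) relative to WTK.

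In mitochondrial β-oxidation, 5 of 8 enzymes fell after folic acid (Acadm, Acadl, Acadvl, Acads and Hadh), and Acadm, Acads and Hadh rose under LepAb. The dehydrogenases make the opening step for chains of different length. Acads, for short chains (ENSMUSG00000029545, chr5:115248358-115257405), was at 304, 309.5 and 288 CPM in WTK, 133, 122 and 138 in IgGK and 222, 186 and 163 in LepK, and changed by -1.20 ± 0.10 (SE, edgeR adjusted p = 8.01e-07) and 0.54 ± 0.10 (SE, edgeR adjusted p = 0.00263). Acadm, for medium chains (ENSMUSG00000062908, chr3:153627994-153650269), was at 941, 957 and 906 CPM in WTK, 619, 420.0 and 541 in IgGK and 930.2, 729 and 693 in LepK. LepK replicate 1 of Acadm lay inside the WTK range, and all LepK libraries lay above IgGK, with a log2 fold change of -0.83 ± 0.13 (SE, edgeR adjusted p = 0.000195) after folic acid and 0.57 ± 0.13 (SE, edgeR adjusted p = 0.01) under LepAb. Hadh, the hydroxyacyl-CoA dehydrogenase for short and medium chains (ENSMUSG00000027984, chr3:131027068-131065750), was at 608, 655 and 617 CPM in WTK, 298, 275 and 298 in IgGK and 486, 385 and 400.4 in LepK. It changed by -1.11 ± 0.09 (SE, edgeR adjusted p = 5.75e-07) and 0.54 ± 0.09 (SE, edgeR adjusted p = 0.0013), without overlap between the groups.

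The remaining 5 enzymes of mitochondrial β-oxidation were not called under LepAb. Acadvl, the dehydrogenase for very long chains, fell by 0.92 on the log2 scale and was 0.26 ± 0.08 (SE, edgeR adjusted p = 0.0359) in LepK against IgGK, and Acadl fell by 0.54 and was 0.38 ± 0.08 (SE, edgeR adjusted p = 0.00614). Both stayed short of the fold threshold under LepAb, with LepK above IgGK in every library. Hadha (ENSMUSG00000025745, chr5:30323302-30360160), the α-subunit of the trifunctional protein, gave the smallest change of the 8, with 215, 238 and 217 CPM in WTK, 196, 214 and 181 in IgGK and 233, 202 and 195 in LepK. The WTK libraries stood just above the IgGK ones, and the log2 fold change was -0.18 ± 0.09 (SE, edgeR adjusted p = 0.0959). Its partner Hadhb and the thiolase Acaa2 were -0.47 ± 0.08 and -0.30 ± 0.09 (SE) in IgGK against WTK and were not called. With library size alone as scaling, Hadha and Acaa2 changed sign in IgGK against WTK.

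The auxiliary enzymes, which bring double bonds into a position that β-oxidation can handle, shifted by similar small amounts. Ech1, Decr1 and Decr2 fell after folic acid, Eci1 and Eci2 were not called, and none of the 5 was called under LepAb. Their log2 fold changes under LepAb ran from 0.20 to 0.43. For all 5, LepK was above IgGK in every library, with an unadjusted edgeR p under 0.05. Of all genes tested, 17.8% lay above IgGK in every library, and 6441 of 19593 had such a p. Ech1, a dienoyl-CoA isomerase (ENSMUSG00000053898, chr7:28524642-28531672), showed the largest change at 560.4, 586 and 567 CPM in WTK, 348, 347 and 334 in IgGK and 501, 442 and 441 in LepK, -0.74 ± 0.07 (SE, edgeR adjusted p = 1.91e-06) in IgGK against WTK. Eci1, the mitochondrial enoyl-CoA isomerase (ENSMUSG00000024132, chr17:24645615-24658322), showed the smallest at 92.6, 102 and 91.5 CPM in WTK, 73.6, 87.1 and 73.5 in IgGK and 87.3, 90.6 and 91.3 in LepK, -0.29 ± 0.08 (SE, edgeR adjusted p = 0.0072). Decr1 and Decr2, the mitochondrial and peroxisomal dienoyl-CoA reductases, fell by 0.52 and 0.53, close to the threshold, and each was called in 7 of 9 fits that left out 1 library. The sign of Eci1 and Eci2 turned with library size alone as scaling.

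Electron transfer flavoprotein takes electrons from the acyl-CoA dehydrogenases and passes them on through its dehydrogenase Etfdh. The α-subunit gene Etfa (ENSMUSG00000032314, chr9:55361792-55419527) was at 404, 423 and 397 CPM in WTK, 203, 178 and 192 in IgGK and 306, 249 and 261 in LepK, and fell by 1.10 on the log2 scale. Under LepAb it rose by 0.51 ± 0.08 (SE, edgeR adjusted p = 0.00146). The β-subunit gene Etfb (ENSMUSG00000004610, chr7:43093507-43107224) was at 48.5, 60.8 and 60.3 CPM in WTK, 45.8, 43.4 and 44.5 in IgGK and 49.1, 58.8 and 62.1 in LepK, and was not called after folic acid (-0.34 ± 0.10 (SE, edgeR adjusted p = 0.0118)) or under LepAb (0.35 ± 0.10 (SE, edgeR adjusted p = 0.0291)). The LepK libraries of Etfb overlapped the WTK range, whereas those of Etfa stayed below WTK. Etfdh fell by 0.86 and was 0.32 ± 0.09 (SE, edgeR adjusted p = 0.0276) in LepK against IgGK.

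The peroxisomal members, the largest group, had 8 of 9 lower after folic acid and 5 of 9 higher in LepK against IgGK (Phyh, Amacr, Acox3, Acox2 and Acaa1b). The uptake and binding genes, the synthetases and the thioesterases each had 2 of 4 higher in LepK against IgGK. The median log2 fold change of the 9 peroxisomal members was -0.71 after folic acid and 0.60 under LepAb. Under LepAb the median was higher in uptake and binding (0.82) and in the synthetases (0.76). Phyh, the hydroxylase that opens α-oxidation of phytanic acid (ENSMUSG00000026664, chr2:4923830-4943541), was at 875, 859.6 and 854 CPM in WTK, 307, 231 and 304 in IgGK and 570.4, 442 and 439.7 in LepK. The groups were apart, with changes of -1.62 ± 0.12 (SE, edgeR adjusted p = 3.78e-07) and 0.79 ± 0.12 (SE, edgeR adjusted p = 0.00103). Amacr, the racemase that prepares branched chains and bile acid intermediates for oxidation (ENSMUSG00000022244, chr15:10981842-10996712), was at 524, 406 and 408 CPM in WTK, 168, 89.9 and 162 in IgGK and 295, 211 and 213 in LepK, and changed by -1.67 ± 0.21 (SE, edgeR adjusted p = 2.35e-05) and 0.78 ± 0.21 (SE, edgeR adjusted p = 0.0192). IgGK replicate 2 was the lowest library of Phyh and Amacr, and LepK replicate 1 the highest LepK library of both.

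Peroxisomal oxidation of branched chains starts with the oxidases Acox2 and Acox3. Acox3 (ENSMUSG00000029098, chr5:35740384-35772696) was at 549, 576 and 577 CPM in WTK, 204, 153 and 205 in IgGK and 384, 244 and 293 in LepK, with changes of -1.60 ± 0.15 (SE, edgeR adjusted p = 2.05e-06) and 0.71 ± 0.15 (SE, edgeR adjusted p = 0.00533). Acox2 (ENSMUSG00000021751, chr14:14210420-14244262) was at 102, 109 and 93.9 CPM in WTK, 58.4, 45.2 and 53.6 in IgGK and 94.4, 69.3 and 75.2 in LepK, and changed by -0.96 ± 0.12 (SE, edgeR adjusted p = 2.09e-05) and 0.60 ± 0.12 (SE, edgeR adjusted p = 0.00386). In both genes every LepK library was above every IgGK library, and LepK replicate 1 of Acox2 reached the WTK range. Acaa1b, a peroxisomal thiolase of rodents (ENSMUSG00000010651, chr9:118977091-118986161), took another course with 331, 347 and 340.3 CPM in WTK, 254, 358 and 219 in IgGK and 403, 456 and 462 in LepK. It was not called after folic acid (-0.29 ± 0.14 (SE, edgeR adjusted p = 0.0944)), and its LepK libraries lay above both IgGK and WTK, at 0.67 ± 0.14 (SE, edgeR adjusted p = 0.00541) against IgGK and 0.38 ± 0.14 (SE, edgeR adjusted p = 0.0488) against WTK, the latter short of the fold threshold. Reads of Acaa1b may be shared with its near-identical copy Acaa1a, and the overlapping gene Dlec1 held a count of up to 20.1% of that of Acaa1b.

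The remaining 4 peroxisomal members fell after folic acid and were not called under LepAb. These were Ehhadh, the bifunctional enzyme of straight-chain oxidation (-0.59 ± 0.13, SE, then 0.31 ± 0.13), and Hsd17b4, the bifunctional enzyme of branched-chain oxidation (-0.71 ± 0.07, then 0.31 ± 0.07). Abcd3, a transporter that imports branched acyl-CoA (-0.70 ± 0.09, then 0.36 ± 0.09), and Pex11a, a peroxisome division factor (-0.53 ± 0.11, then 0.35 ± 0.11), completed the group. For Hsd17b4 and Abcd3 the LepK libraries stood above the IgGK libraries, and for Ehhadh and Pex11a they overlapped.

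The thioesterases split. Acot12 and Acot4 fell after folic acid and rose under LepAb, Acot1 rose after folic acid, and Acot3 was not called in either comparison. Acot12, a cytosolic acetyl-CoA hydrolase (ENSMUSG00000021620, chr13:91889631-91934267), was at 243, 250.2 and 214 CPM in WTK, 103, 74.8 and 92.5 in IgGK and 171, 122 and 129 in LepK, with changes of -1.39 ± 0.14 (SE, edgeR adjusted p = 2.95e-06) and 0.65 ± 0.13 (SE, edgeR adjusted p = 0.0055). Acot4, a peroxisomal succinyl-CoA thioesterase (ENSMUSG00000052392, chr12:84085153-84095375), was at 80.8, 99.9 and 84.5 CPM in WTK, 47.1, 54.6 and 46.3 in IgGK and 77.3, 61.3 and 70.9 in LepK, with changes of -0.84 ± 0.10 (SE, edgeR adjusted p = 2.06e-05) and 0.50 ± 0.10 (SE, edgeR adjusted p = 0.00538). This last value sat at the fold threshold, and Acot4 was called in 5 of 9 fits that left out 1 library. Acot1, the cytosolic long-chain thioesterase (ENSMUSG00000072949, chr12:84056264-84065145), was at 35.3, 40.0 and 36.0 CPM in WTK, 52.1, 75.9 and 49.3 in IgGK and 67.9, 64.7 and 74.4 in LepK. All injured libraries were above WTK, at 0.67 ± 0.14 (SE, edgeR adjusted p = 0.00111) in IgGK and 0.90 ± 0.14 (SE, edgeR adjusted p = 0.000307) in LepK, and the IgGK and LepK ranges overlapped. The Acot genes of this cluster are close copies, so their reads may be split between them, and 4732463B04Rik overlaps Acot3 with a count of up to 42.3% of its own.

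**Figure D3:**
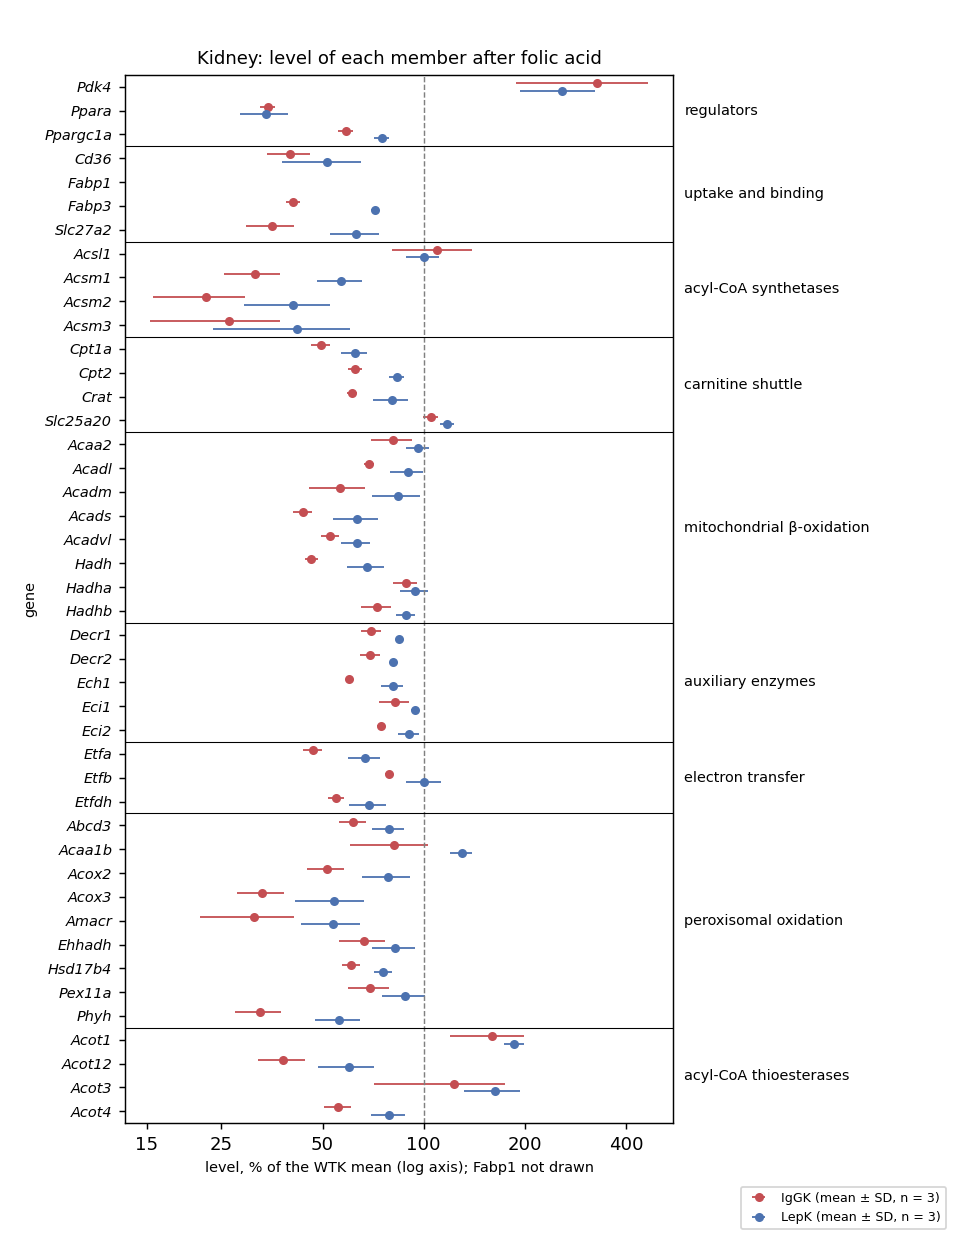
Level of each member in IgGK and LepK as a percentage of the WTK mean (log axis, mean ± SD of 3 libraries), by role, without Fabp1. Most IgGK points lie below 100% with the LepK point to their right, Ppara has both points at 34%, and Pdk4 and Acot1 lie above 100% in both groups.

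The gene set moved together with markers of the cells that use it, and in whole kidney fewer cells of a type and less RNA per cell cannot be told apart. All 15 proximal tubule markers fell in IgGK against WTK (median log2 fold change -1.56), 12 of 15 rose in LepK against IgGK (median 0.64), and 13 of 15 were still lower in LepK against WTK. Their summed level was 23191 to 24105 CPM in WTK, 6203 to 7967 in IgGK and 11190 to 14042 in LepK, and LepK replicate 1 had the highest LepK sum, as it had for the members. Of 10 markers of the thick ascending limb and distal nephron, 5 fell after folic acid and 7 rose under LepAb. Injured tubule markers went the other way, with 8 of 9 higher in IgGK and 6 of 9 lower in LepK against IgGK, and so did macrophage markers, with 10 of 11 tested higher and then 9 of 11 lower. White adipocyte markers, a sign of fat in the sample, summed to 61.9 to 200 CPM in WTK, 474 to 777 in IgGK and 165 to 421 in LepK. Of these 7 markers, 6 rose and 1 fell after folic acid, and 0 rose and 1 fell under LepAb. Lep, the leptin gene, ran against the sum after folic acid, with group means of 5.61 (WTK), 1.59 (IgGK) and 0.839 (LepK) CPM. The part of these cell types in the changes of the members was not tested.

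Per gene length, the members differed widely in level. By the deposited FPKM values, which are scaled by gene length and library depth, Slc27a2 was the most abundant member in all kidney groups, at 1107 ± 52.0 (SD, n = 3) in WTK, 382 ± 61.8 in IgGK and 692 ± 116 in LepK. Acsm2 followed with 759 ± 29.2, 166 ± 50.9 and 307 ± 88.4 FPKM. Phyh came next in WTK and LepK, at 377 ± 3.84 and 209.7 ± 33.1 FPKM, and in IgGK at 119.6 ± 18.5 it did not differ beyond its spread from Ech1 at 121 ± 3.14. The lung had another order: Cd36 led with 139 ± 11.5 FPKM in IgGL and 154 ± 14.7 in LepL, followed by Acaa2 at 48.6 ± 3.97 and 57.4 ± 2.93, whereas Slc27a2 was at 0.209 ± 0.0732 and 0.648 ± 0.143 and Acsm2 at 0.0124 ± 0.00761 and 0.00309 ± 0.00535.

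In the bleomycin lung, LepL against IgGL, 41 members had enough counts to be tested (all but Acot3, Acot12 and Acsm2), 7 of them rose and none fell in edgeR, with 10 higher and none lower in DESeq2. Among the 19617 genes tested in lung, 1.78% rose and 2.36% fell. The median log2 fold change of the members was 0.21, against 0.00 for all genes. The LepL libraries lay above all IgGL libraries for 16 of the 41 members and below them for 1, against 16.0% and 17.3% of all genes. The 7 that rose were Slc27a2, Ppargc1a, Abcd3, Eci1, Acsl1, Phyh and Hadh, and of these Slc27a2, Phyh and Hadh had also risen in kidney. These calls were not stable to leaving out 1 library. Leaving out IgGL replicate 1 gave 9. Leaving out any one of the other 5 lung libraries (IgGL replicate 2 or 3, LepL replicate 1, 2 or 3) gave 0. In those 5 fits 13 to 15 members had an unadjusted edgeR p under 0.05. With every library, 15 of the 41 members and 5357 of the 19617 genes tested had such a p. Of all genes tested in lung, 812 were called with every library, 3539 without IgGL replicate 1 and 0 to 22 in those 5 fits.

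Slc27a2 and Ppargc1a had the largest of the called lung changes, from low levels. Slc27a2 was at 1.52, 0.750 and 1.16 CPM in IgGL and 4.34, 3.07 and 3.0 in LepL, 1.59 ± 0.35 (SE, edgeR adjusted p = 0.0441). Ppargc1a was at 4.29, 3.53 and 2.69 CPM in IgGL and 7.02, 7.54 and 7.15 in LepL, 1.04 ± 0.23 (SE, edgeR adjusted p = 0.0444). In both genes the groups did not overlap. Abcd3 was at 144, 122 and 104 CPM in IgGL and 185, 199 and 186 in LepL, 0.63 ± 0.13 (SE, edgeR adjusted p = 0.0391), and Phyh at 45.4, 39.9 and 36.1 CPM in IgGL and 52.9, 61.9 and 59.1 in LepL, 0.52 ± 0.12 (SE, edgeR adjusted p = 0.0465). Both belong to the peroxisomal group, in which all 9 log2 fold changes in lung were positive and the other 7 were not called.

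The other called lung genes were mitochondrial enzymes and a synthetase. Hadh was at 70.6, 64.6 and 62.3 CPM in IgGL and 85.1, 92.9 and 104 in LepL, 0.51 ± 0.11 (SE, edgeR adjusted p = 0.0396). Eci1 was at 24.3, 23.3 and 25.1 CPM in IgGL and 33.2, 35.4 and 37.0 in LepL, 0.54 ± 0.11 (SE, edgeR adjusted p = 0.0374). Acsl1, not called in kidney, was at 54.5, 48.1 and 49.5 CPM in IgGL and 67.3, 72.3 and 78.4 in LepL, 0.52 ± 0.10 (SE, edgeR adjusted p = 0.0372). In all 3 the LepL libraries were above the IgGL libraries. Acadm and Hadhb, at 0.37 ± 0.09 (SE, edgeR adjusted p = 0.0561) and 0.37 ± 0.09 (SE, edgeR adjusted p = 0.0545), were apart in the same direction and missed the thresholds. Fabp1 was at 0.0831, 0 and 0.133 CPM in IgGL and 0.359, 0.438 and 1.16 in LepL, 3.17 ± 0.91 (SE, edgeR adjusted p = 0.0738).

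Several cell type markers moved with the antibody in lung. Alveolar type 2 markers summed to 7542 to 13799 CPM in IgGL and 19778 to 26557 in LepL, and 6 of 9 rose. White adipocyte markers summed to 50.5 to 117 CPM and 196 to 295, with 3 of 6 tested higher, and brown adipocyte markers to 4.53 to 25.3 and 52.9 to 67.2, with 2 of 5 higher. Cardiac muscle markers ran from 142 to 218 CPM in IgGL and from 203 to 581 in LepL, with 2 of 7 higher, and skeletal muscle markers from 279 to 951 and from 918 to 2227, with none of 6 called and 5 at an unadjusted p under 0.05. Of 12 macrophage markers 4 fell and 0 rose, and 11 log2 fold changes were negative (median -0.73). Lyz2 was the exception, with a mean of 3644 CPM in IgGL and 7169 in LepL. With Lyz2 included, the macrophage markers summed to 4216 to 7012 CPM in IgGL and 8271 to 8536 in LepL. Neutrophil markers summed to 169 to 459 CPM and 67.0 to 99.5, with 4 of 8 lower. Of 8 endothelial markers 1 fell, and of 7 alveolar type 1 markers none was called, with 5 at an unadjusted p under 0.05. Of the 19617 genes tested in lung, 5357 had an unadjusted edgeR p under 0.05. No marker of these lists was at 0 in a lung group. All of these cell types can express genes of the set, and their part in the lung result was not tested.

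**Figure D4:**
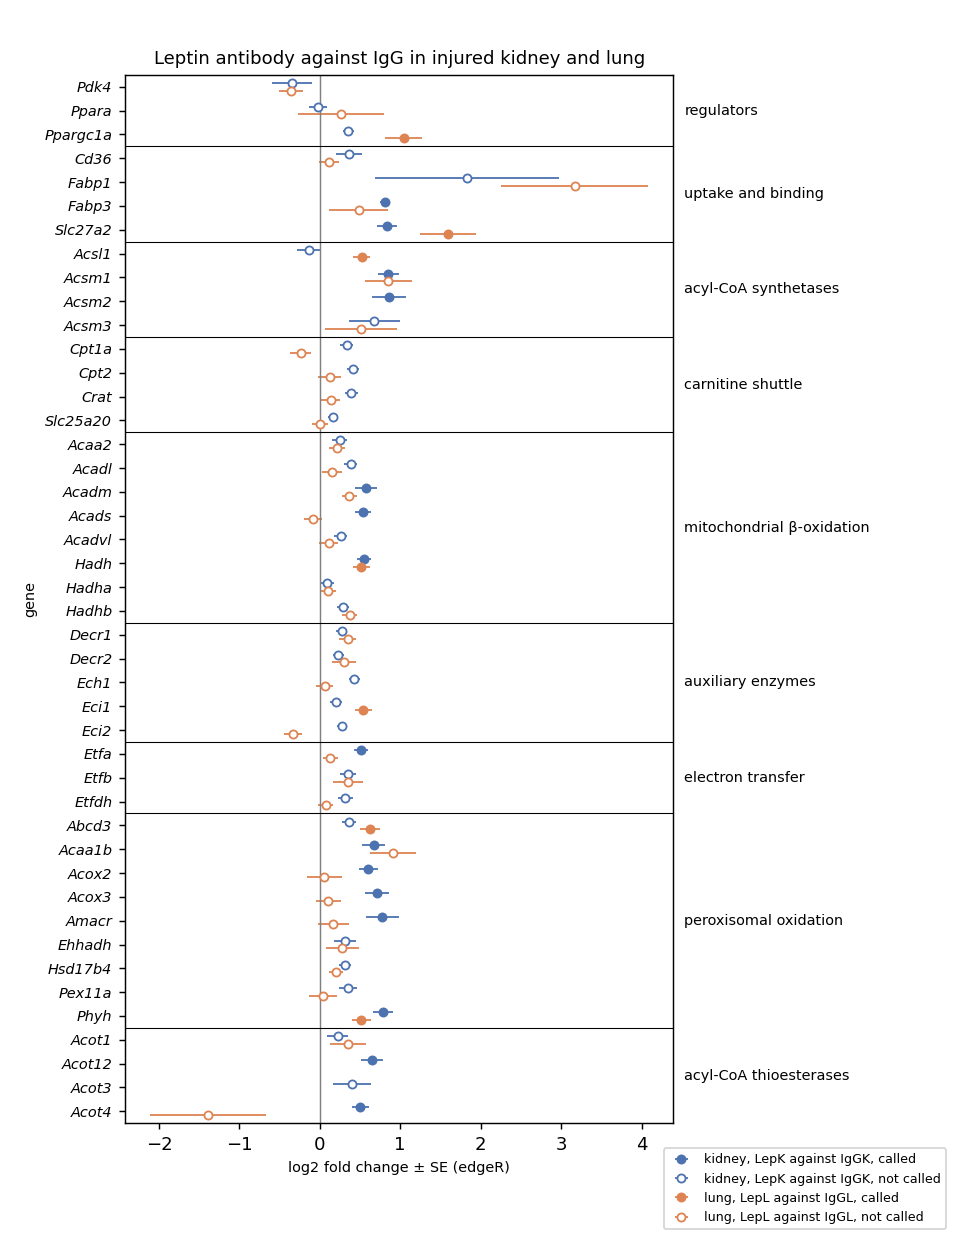
Log2 fold change ± SE of each member for LepAb against IgG in kidney (blue) and lung (orange), with filled points for called genes and open points for genes not called, by role. Kidney points lie right of 0 for 41 of 44 members, lung points scatter around a lower median, and Slc27a2, Hadh and Phyh are filled in both organs.

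The 12 libraries of folic acid kidney and bleomycin lung were fitted together in edgeR to ask whether the effect of the antibody differed between the organs. Here a gene was called at an adjusted p under 0.05 alone, with no fold threshold. The kidney minus lung difference was called for 4 members, all with the higher effect in kidney, while 3.51% of the 21488 genes tested were called in this direction and 3.62% in the other. Those tested in both organs were Acads (0.66 ± 0.16 (SE, edgeR adjusted p = 0.0311)), Eci2 (0.64 ± 0.14 (SE, edgeR adjusted p = 0.0205)) and Cpt1a (0.60 ± 0.17 (SE, edgeR adjusted p = 0.0477)). The remaining one, Acot12, passed the filter through kidney, had 2 to 18 counts per lung library (0.166, 0.50 and 0.466 CPM in IgGL and 0.0653, 0.146 and 0.126 in LepL) and was not tested in lung, so its value is no measure of a lung effect. These calls were not stable to leaving out 1 library. The count was 0 without IgGK replicate 2, IgGK replicate 3, LepK replicate 1 or LepL replicate 3 (with 11 to 13 members at an unadjusted p under 0.05). In those fits 367 to 699 of all genes were called, against 1531 with all 12 libraries. With all 12 libraries, 14 of the 44 members and 5468 of the 21488 genes tested had an unadjusted edgeR p under 0.05. The count of members called was 1 on leaving out IgGL replicate 2 or LepL replicate 1. Calls in the other direction appeared under several settings, among them DESeq2 (7 higher, 1 lower), no filter on low counts (8 higher, 3 lower) and library size alone as scaling (1 higher, 3 lower). For Ppargc1a the difference was -0.65 ± 0.19 (SE, edgeR adjusted p = 0.0527), the nearest in the other direction. The median over the 44 members was 0.19, and it turned to -0.065 with library size alone as scaling. It includes Acot3, Acot12 and Acsm2, which were not tested in lung and whose values are no measure of a lung effect.

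Genes of the same pathway outside the set, from a list of 55 of which 53 were tested in kidney, were counted in the same way: 27 fell and 12 rose in IgGK against WTK, and 17 rose and 1 fell in LepK against IgGK, with medians of -0.66 and 0.36. Of all genes tested in kidney, 15.6% fell and 21.7% rose after folic acid, and 4.38% rose and 5.99% fell under LepAb. Among the most changed after folic acid were Cyp4a14, a fatty acid ω-hydroxylase (5.86 ± 0.65, SE, edgeR adjusted p = 8.32e-06) and Cyp4a32 (-2.03 ± 0.19, adjusted p = 1.74e-06). Cyp4a14, a classical PPARα target, was higher in IgGK than in WTK while Ppara was lower, and in LepK against IgGK it was -0.25 ± 0.48 (SE, edgeR adjusted p = 0.761). Under LepAb the most changed were Abcd2, a peroxisomal transporter of very-long-chain acyl-CoA, which fell (-1.13 ± 0.36, edgeR adjusted p = 0.0432), and the ketone body enzymes Bdh1 (0.83 ± 0.16, adjusted p = 0.00304) and Acat1 (0.82 ± 0.17, adjusted p = 0.00480), which rose. In lung, 49 of these genes were tested, and 1 rose and 1 fell, while 1.78% of all genes rose and 2.36% fell.

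Genes that build peroxisomes were lower after folic acid too. Of 23 peroxins and peroxisomal membrane genes, 12 fell and none rose after folic acid (median log2 fold change -0.52), while 15.6% of all genes fell and 21.7% rose. Under LepAb 2 of the 23 rose (median 0.26), while 4.38% of all genes rose. Pxmp2, a channel of the peroxisomal membrane, fell by 1.31 on the log2 scale, Pex7 and Pex5, the import receptors of the matrix enzymes, fell by 0.87 and 0.85, and Pxmp2 (0.98 ± 0.13, edgeR adjusted p = 0.000427) and Pex14 (0.52 ± 0.08, adjusted p = 0.00141) rose under LepAb. Pex5l was at 0.77 ± 0.54 (edgeR adjusted p = 0.358) and was not called. In lung none of the 23 was called by edgeR, and 4 had an unadjusted p under 0.05, as had 5357 of the 19617 genes tested.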

How the data were processed

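Gene counts of 15 poly(A) libraries without strand information, 3 in each of 5 groups, were analysed as deposited. The authors deposited raw read counts per gene, and FPKM values that they had scaled by gene length and library depth, and both were used. Group means, fold changes and p-values of the authors' own comparisons stand in the same table and were not used. The submitters' processing notes name GRCm39 and DESeq2, and gene positions are given in that build. The aligner, the counting tool and the annotation are not given in the sources used here. Libraries were grouped by their title, tissue and treatment labels, which all carry the same batch. A description line naming a column contradicted the other labels and was set aside, and the columns of LepL replicate 3 carry a suffix.

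The software was edgeR 4.0.16, with limma 3.58.1 and, as an alternative, DESeq2 1.42.0, in R 4.3.3. Genes were filtered with filterByExpr (minimum count 10, minimum total count 15), scaled with TMM and fitted with glmQLFit and glmQLFTest, over 9 kidney libraries (6 residual degrees of freedom), 6 lung libraries (4) or 12 libraries of injured organs. p-values were adjusted over all genes by the Benjamini-Hochberg method. The standard error is the size of the log2 fold change over the square root of F. Total counts of 25913969 to 38924788 limit the precision of genes at a few CPM, such as Fabp1. The procedure was tested on simulated data.

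The members and gene lists, their roles and the rule for naming them were chosen with earlier results of these data known, and the hepatocyte markers were chosen after seeing the data. Values in every library are given for members called under LepAb in either organ and for the highest and lowest log2 fold change of each role in IgGK against WTK. Of the other pathway genes and the peroxins, the 3 most changed after folic acid and the 3 most changed under LepAb in kidney are named, except 1 gene that is not reported here. Alternatives were RLE, upper-quartile and library-size scaling, DESeq2, no filter or a mean of at least 1 CPM, other fold thresholds, other sets of libraries in the fit, the replicate number as a block, and leaving out 1 library. Promoters came from RefSeq (GRCm38.p6) by symbol. Their coordinates belong to that build and not to that of the counts, and protein sequences were not analysed here.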

Additional observations from a re-analysis of the deposited data

Results flagged for a closer look

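In 3 members tested in both organs the effect of LepAb differed between kidney and lung by the test of the difference itself (edgeR, 12 libraries, adjusted p under 0.05 with no fold threshold). The kidney minus lung log2 difference was 0.66 for Acads, 0.64 for Eci2 and 0.60 for Cpt1a. By the same rule, 3.51% of the 21488 genes tested were called in this direction and 3.62% in the other. For Acads, LepK against IgGK gave 0.54 and LepL against IgGL -0.08, for Eci2 0.27 and -0.33, and for Cpt1a 0.34 and -0.24. The signs differed between the organs, but none of the 3 was called in lung, and Eci2 and Cpt1a were called in neither organ alone. In lung the libraries overlapped for Acads (30.6, 33.0 and 32.0 CPM in IgGL and 27.6, 32.1 and 30.4 in LepL) and for Cpt1a. Those of Eci2 did not overlap. Acot12 also passed the test, at 2.34, but it was tested in kidney only, since its lung libraries held 0.0653 to 0.50 CPM, and the value rests on 2 to 18 counts per lung library. Leaving out 1 of the 12 libraries at a time, the difference was called in 7 fits for Eci2, 5 for Acads (1 of them just under the threshold), 4 for Acot12 and 2 for Cpt1a.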

How the results depend on the processing

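The medians of the members kept their direction in the 4 comparisons within an organ under every alternative run, and no called member changed sign. Scaling by library size alone shifted the median log2 fold change of all genes by 0.44 in IgGK against WTK, -0.18 in LepK against IgGK, 0.26 in LepK against WTK and -0.25 in kidney minus lung. The members' medians became -0.28, 0.19, -0.070 and -0.065 (from -0.73, 0.37, -0.33 and 0.19), which reversed the last, and the calls 22, 7 and 13 in the kidney comparisons (from 34, 15 and 20). With a log2 fold change over 1 the calls were 17, 0 and 5 in kidney and 2 in lung, and with no fold threshold 31 in LepK against IgGK and 33 in LepK against WTK. The 0 of LepK against IgGK stands beside 36 of the 44 members at an unadjusted edgeR p under 0.05. Of the 19593 genes tested in that comparison, 6441 had such a p. For kidney minus lung, DESeq2 called 8 members (7 higher, 1 lower) and the fit with no filter 11 (8 higher, 3 lower).

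Leaving out 1 library, the calls ranged from 29 to 34 in IgGK against WTK (medians -0.76 to -0.70), from 6 to 16 in LepK against IgGK (0.29 to 0.43), from 17 to 20 in LepK against WTK (-0.41 to -0.27), from 0 to 9 in LepL against IgGL (0.18 to 0.29) and from 0 to 6 in kidney minus lung (0.058 to 0.26). Kidney minus lung had 0 calls without IgGK replicate 2, IgGK replicate 3, LepK replicate 1 or LepL replicate 3, and, in a fit added after seeing the data, without both IgGK replicate 2 and LepK replicate 2 (median of LepK against WTK -0.26), where 14 members had an unadjusted edgeR p under 0.05. With all 12 libraries, 5468 of the 21488 genes tested had such a p. Kidney minus lung had 1 call without IgGL replicate 2 or LepL replicate 1, and 2 without IgGK replicate 1, IgGL replicate 3 or LepL replicate 2. For LepL against IgGL, 812 of all genes were called, against 3539 without IgGL replicate 1 and 0 to 22 in the 5 fits with no member called, and the cause was not tested. The counts of kidney minus lung include Acot12 where it was called, although it was not tested in lung. The medians of kidney minus lung include Acot3, Acot12 and Acsm2, none of which was tested in lung. Genes near 1 CPM are limited by depth.

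The labels give the same replicate numbers in each group. Deviations from the group means correlated by -0.13 to 0.26 between libraries of the same number, so the numbers were not taken as pairs. With the number as a replicate block, 34, 16 and 20 members were called in the kidney comparisons, 4 in kidney minus lung and 0 in LepL against IgGL. In LepL against IgGL, 4 genes of all were then called, and 15 members had an unadjusted edgeR p under 0.05. Without the block, 5357 of the 19617 genes tested in lung had such a p.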
